A study of Mus musculus with 6 samples.

Results

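Mitochondrial ribosomal proteins are the nuclear-encoded proteins of the ribosome inside mitochondria. The genes were taken as all protein-coding genes whose symbol begins with Mrpl or Mrps followed by a digit, with pseudogene names ending in -ps left out. There were 78 of them among the 53379 gene identifiers of the count tables. Their transcripts were counted by RNA-seq in Min6, a cell line from a mouse insulinoma that stands in for pancreatic beta cells. All cells carried lentiCRISPR v2, a lentiviral vector that delivers Cas9 with a guide RNA (gRNA). In 3 libraries the gRNA was against JunD, an AP-1 transcription factor, and in 3 libraries it was against the Rosa26 locus, the negative control. Both groups were at passage 28, were harvested 8 days after transduction and had spent 30 hours in glucolipotoxic conditions, so both groups carried Cas9 and the same metabolic stress. The labels name no untransduced or unstressed library. They do not tie replicates to transductions, so p-values reflect only the spread between these libraries, which may be technical.

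The mitochondrial ribosome makes a small set of proteins, all of them subunits of the respiratory chain and ATP synthase, from the mRNAs of the mitochondrial genome. Its RNAs come from that genome, while its proteins are made in the cytosol and imported. The small subunit decodes the mRNA, and the large subunit joins amino acids and releases the chain into the inner membrane. In beta cells, ATP from the respiratory chain couples glucose to insulin release. Of the 78 genes, 26 encode small-subunit proteins and 51 encode large-subunit proteins, counting Mrps30 and Mrps18a with the large subunit, where their proteins sit. The remaining gene, Mrps36, encodes a protein of the alpha-ketoglutarate dehydrogenase complex and is listed for its symbol. By origin, 46 have a counterpart in bacterial ribosomes and 31 are counted as specific to mitochondria, Mrps18a and Mrps18b among them.

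The libraries held 41071566 to 50024931 counts, and members took 0.211% to 0.228% of them in JunD gRNA libraries and 0.178% to 0.208% in Rosa26 gRNA libraries. Intervals and SDs here are over libraries, and reads are not independent molecules. Jund was at 22.6, 25.1 and 26.9 CPM (counts scaled by each library's total) in JunD gRNA libraries, against 39.3, 34.5 and 30.4 CPM in Rosa26 gRNA libraries, and the groups did not overlap. Its log2 fold change was -0.47 ± 0.11 (SE) and did not pass (edgeR quasi-likelihood test with Benjamini-Hochberg adjustment over all genes, adjusted p = 0.417), and without Rosa26 gRNA replicate 1 it was -0.38 ± 0.08 (edgeR adjusted p = 0.00773). Rosa26 gRNA replicate 1 stood apart from the rest. The median absolute log2 deviation of its genes was 0.259 when set against the average of the other 5, and 0.0724 to 0.109 for each of those 5 set against the remaining 4. The Spearman correlation of those deviations with GC content across genes, a description since genes share the library, was -0.537 in Rosa26 gRNA replicate 1. It was 0.0653, 0.0257 and 0.323 in the JunD gRNA libraries, against -0.197 and -0.259 in replicates 2 and 3 of the Rosa26 gRNA. The main results for members are therefore given with and without that library, while some genes of other lists are given without it only. All 10 beta-cell markers had counts in every library, with Ins2 at 49898, 49893 and 53634 CPM in JunD gRNA libraries, against 21947, 45933 and 49125 CPM in Rosa26 gRNA libraries. The 10 summed to 75584 to 81427 CPM in JunD gRNA libraries and 42805 to 77170 CPM in Rosa26 gRNA libraries. None of the 10 passed in edgeR with 6 libraries, where 3 were higher and 1 lower at an unadjusted p under 0.05. Without Rosa26 gRNA replicate 1, 5 rose (Pdx1 by 0.37, Mafa by 0.47, Nkx6-1 by 0.21, Slc2a2 by 0.29 and Ins2 by 0.11 on the log2 scale) and 2 fell (Iapp by 0.11 and Pcsk1 by 0.12), against 1.45% of all genes higher and 1.4% lower. With GC content and length also corrected, 4 rose and 0 fell, against 1.31% of all genes higher and 1.53% lower. Ins2, Iapp and Pcsk1 then no longer passed (edgeR adjusted p = 0.0801, 0.449 and 0.439). Of 15 markers of other cell types, Adgre1 and Col3a1 were at 0 in every library, and Ptprc, Cdh5, Cpa1 and Cela2a did not exceed 0.0604 CPM. Other markers of immune cells, endothelium and fibroblasts had counts in every library. Cd68 was at 2.19 to 3.96 CPM, Pecam1 at 1.10 to 2.02, Col1a1 at 0.599 to 1.52 and Col1a2 at 0.861 to 2.14. The duct marker Krt19 was at 49.8 to 62.5 CPM. Of the islet hormone genes, Sst was at 2.14 to 8.23 CPM, Ghrl at 0.215 to 0.682 and Gcg, the glucagon gene, at 523 to 686. Ppy, the pancreatic polypeptide gene, was the marker of another cell type that passed without Rosa26 gRNA replicate 1 (log2 fold change -0.70 ± 0.08, edgeR adjusted p = 1.45e-05). Ppy was at 15.5, 17.5 and 18.7 CPM in JunD gRNA libraries, against 10.1, 28.4 and 27.8 CPM in Rosa26 gRNA libraries. With all 6 libraries the groups therefore overlapped, and its log2 fold change was -0.35 ± 0.32 (edgeR adjusted p = 0.602). The 15 summed to 742 to 768 CPM in JunD gRNA libraries and 592 to 783 CPM in Rosa26 gRNA libraries. In bulk RNA, fewer cells of a type and less RNA per cell cannot be told apart, and the part of these markers in the results below was not tested.

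The promoters of 5 members are shown because the results below return to them. Mrpl28 is the member that passed the test without Rosa26 gRNA replicate 1. Mrpl34 had the highest fold change with all 6 libraries (without Rosa26 gRNA replicate 1, Mrpl57 and Mrpl28 were above it), and Mrpl17 the highest mean CPM. Mrpl33 and Mrps25 hold an AP-1 motif and had fold changes of opposite sign. Each line gives the 250 bases before the RefSeq start site on GRCm38.p6, 5′ to 3′ on the gene's strand. They lie at chr17:26123253-26123502 (plus strand), chr8:71464676-71464925 (plus), chr7:105811088-105811337 (minus), chr5:31613701-31613950 (plus) and chr6:92184024-92184273 (minus). Capitals mark matches to the short motifs of AP-1 (TGANTCA), NRF1 (GCATGCG), the ETS family (CCGGAAG), CRE (TGACGTC) or YY1 (AAGATGG) on either strand, and overlapping matches run together.
Mrpl28: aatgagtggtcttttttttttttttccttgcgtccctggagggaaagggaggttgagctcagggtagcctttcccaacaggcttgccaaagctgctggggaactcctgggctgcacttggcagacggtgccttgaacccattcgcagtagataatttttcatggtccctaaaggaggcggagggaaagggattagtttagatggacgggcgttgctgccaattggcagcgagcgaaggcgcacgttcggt
Mrpl34: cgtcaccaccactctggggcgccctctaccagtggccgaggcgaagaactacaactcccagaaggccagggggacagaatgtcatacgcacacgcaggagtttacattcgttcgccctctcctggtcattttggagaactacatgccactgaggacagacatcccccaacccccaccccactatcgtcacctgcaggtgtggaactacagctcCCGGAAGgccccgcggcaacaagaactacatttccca
Mrpl17: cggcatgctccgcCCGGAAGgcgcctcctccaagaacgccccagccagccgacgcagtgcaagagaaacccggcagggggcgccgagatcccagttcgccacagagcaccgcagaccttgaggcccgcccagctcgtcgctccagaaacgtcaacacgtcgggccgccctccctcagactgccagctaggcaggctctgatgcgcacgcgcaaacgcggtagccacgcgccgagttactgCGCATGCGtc
Mrpl33: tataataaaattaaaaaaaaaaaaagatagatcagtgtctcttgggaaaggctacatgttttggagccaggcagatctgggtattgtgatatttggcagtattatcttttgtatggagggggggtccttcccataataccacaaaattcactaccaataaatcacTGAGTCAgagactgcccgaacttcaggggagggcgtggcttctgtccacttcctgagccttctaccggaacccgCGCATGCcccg
Mrps25: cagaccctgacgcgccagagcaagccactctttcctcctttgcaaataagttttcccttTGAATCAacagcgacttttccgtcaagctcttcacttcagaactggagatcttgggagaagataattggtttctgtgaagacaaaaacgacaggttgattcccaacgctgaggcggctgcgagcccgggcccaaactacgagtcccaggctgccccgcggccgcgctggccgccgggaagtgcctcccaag

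RefSeq windows from 250 bases before to 50 bases after the start were found for 69 of the 78 members, in 75 windows. The ETS motif, the core bound by GABP, a known activator of nuclear genes for mitochondrial proteins, was in 26 of these windows (34.7%), against 8.86% of all 32851 RefSeq windows. The motif of NRF1, another activator of such genes, was in 8 (10.7%, against 3.58%), and the YY1 motif in 13 (17.3%, against 6.34%). The AP-1 motif, the kind of site that JunD dimers bind, was in 3 windows (4%, against 7.81%), those of Mrpl33, Mrps25 and Mrps5. The CRE motif was in 4 (5.33%, against 3.21%), the GC box GGGCGG in 39 (52%, against 35.7%) and TATAAA in 5 (6.67%, against 13.6%). The median GC content was 58.7% in member windows and 52.7% in all windows. Motif letters are a description of the window and no record of binding, and shares were not matched for GC content. The log2 fold changes of the 3 genes with an AP-1 motif were -0.09 (Mrpl33), 0.14 (Mrps25) and 0.02 (Mrps5) with all 6 libraries, and in the same order -0.18, 0.16 and -0.02 once Rosa26 gRNA replicate 1 was left out. Mrpl33 was at 8.68, 8.74 and 9.15 CPM in JunD gRNA libraries, against 8.27, 9.80 and 10.4 CPM in Rosa26 gRNA libraries, where replicate 1 lay below and replicates 2 and 3 above all JunD gRNA libraries. Mrps25 was at 14.6, 14.3 and 15.0 CPM in JunD gRNA libraries, against 13.8, 12.99 and 13.4 CPM in Rosa26 gRNA libraries, without overlap. Exons of Nr2c2 on the opposite strand cover 69.8% of the Mrps25 exon length. Nr2c2 had 12399 counts over the 6 libraries, against 3833 for Mrps25, so the level of Mrps25 is uncertain. None of the 3 passed in either fit.

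Start sites close to that of an opposite-strand neighbour were frequent. In GENCODE M21, 33 of 78 members (42.3%) had the start of another protein-coding gene on the opposite strand within 1000 bases of their own. The same held for 2375 of all 21865 protein-coding genes (10.9%) and for 2169 of the 14058 protein-coding genes that were tested (15.4%). The members Mrps11 and Mrpl46 form such a pair, with starts 412 bases apart on chromosome 7. Other neighbours also encode mitochondrial proteins, among them the complex I genes Ndufs6 beside Mrpl36 and Ndufb5 beside Mrpl47, the helicase gene Twnk beside Mrpl43 and the seryl-tRNA synthetase gene Sars2 beside Mrps12. Of the 31 neighbours that are no member, 30 were tested, 17 had a positive log2 fold change with all 6 libraries and 19 without Rosa26 gRNA replicate 1, with medians of 0.07 and 0.03. The 33 members themselves had medians of 0.15 and 0.11. Of the 30 tested neighbours 0 passed in edgeR with 5 libraries, where 1.45% of all genes were higher and 1.4% lower, so 0 is near the background.

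In level, 77 of the 78 members had counts in every library and passed the filter on low counts, and 1, Mrpl53, was at 0 in all 6. Exons of the gene Gm42688, on the same strand, cover 88.0% of the Mrpl53 exon length, and Gm42688 had 306 counts over the 6 libraries. The 77 ranged from 2.91 CPM (Mrpl23) to 68.9 CPM (Mrpl17), with a median of 25.5 CPM. Per kilobase of annotated exon the median was 9.78 CPM per kb, against 4.19 CPM per kb over all 17767 genes tested. The highest mean levels per kilobase were those of Mrps21 (45.3 ± 8.49 CPM per kb, SD over 6 libraries), Mrpl28 (43.7 ± 7.16), Mrps12 (40.5 ± 7.28), Mrpl2 (39.2 ± 3.03) and Mrpl34 (37.4 ± 8.93). The SDs pool both groups, and the order of these 5 was not tested. Mrps21 was at 38.5, 35.4 and 36.6 CPM in JunD gRNA libraries, against 21.0, 34.1 and 35.2 CPM in Rosa26 gRNA libraries, and its log2 fold change was 0.30 ± 0.18 (SE) with 6 libraries and 0.09 ± 0.06 without Rosa26 gRNA replicate 1. Mrpl2 had 0.10 ± 0.09 and 0.13 ± 0.07, with overlapping groups. Mrps12 is the counterpart of bacterial S12 at the decoding centre, and Mrpl2 that of L2 beside the peptidyl transferase centre. The lowest with counts were Mrps35 (1.67 CPM per kb), Mrpl48 (1.77), Mrpl33 (1.252) and Mrpl23 (0.596). Exon length is the union of all annotated isoforms, so a gene with long rare isoforms is placed low.

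**Figure D1:**
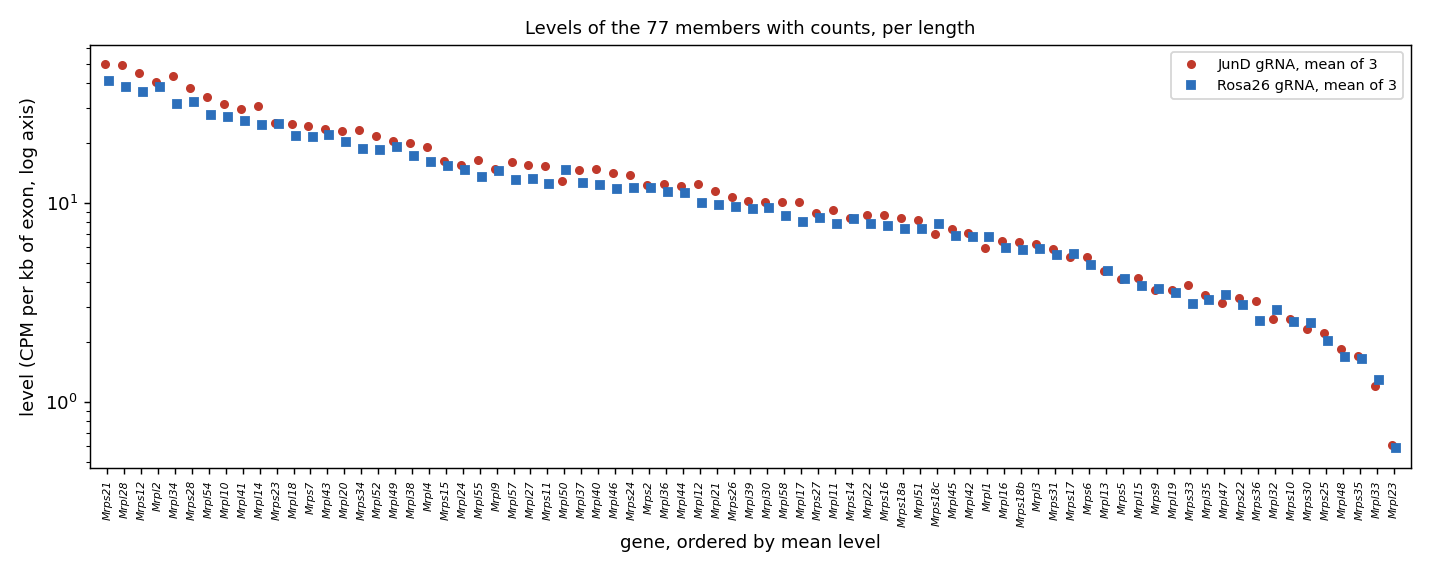
Mean level of each of the 77 members with counts, in CPM per kb of exon on a log axis, ordered by mean level, for JunD gRNA (circles, mean of 3 libraries) and Rosa26 gRNA (squares, mean of 3). Levels run from 45.3 CPM per kb for Mrps21 to 0.596 for Mrpl23. Group means of a gene differ little beside that range, but are apart in some genes (Mrpl34, 43.3 in JunD gRNA against 31.5 in Rosa26 gRNA).

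Some members share reads with other sequences, and the sources used here do not state the strand setting of the counting. Processed pseudogenes of 3 members had counts. Mrpl23-ps1 held 1474, 1415 and 1803 counts in JunD gRNA libraries, against 1171, 1764 and 1581 in Rosa26 gRNA libraries, where its parent Mrpl23, a protein near the exit tunnel, held 107, 120 and 169 counts in JunD gRNA libraries, against 128, 132 and 143 in Rosa26 gRNA libraries. Mrps36 held 169, 180 and 191 counts in JunD gRNA libraries, against 84, 205 and 179 in Rosa26 gRNA libraries, fewer in each library than Mrps36-ps1. Mrps36 and Mrpl23 had log2 fold changes of 0.33 ± 0.26 and 0.07 ± 0.17 (SE) with 6 libraries. Mrpl48 held 623, 614 and 771 counts in JunD gRNA libraries, against 559, 686 and 695 in Rosa26 gRNA libraries, and Mrpl48-ps held 3400 in all. The levels of Mrpl23, Mrps36 and Mrpl48 are therefore uncertain. In addition, exons of 31 tested members overlap those of another gene with counts. Their median log2 fold change was 0.14 with all 6 libraries, against 0.15 for the 46 without overlap, and 0.10 against 0.08 without Rosa26 gRNA replicate 1.

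Transcripts of mitochondrial ribosomal proteins were slightly more abundant as a group in JunD gRNA cells. The 78 genes summed to 2112, 2172 and 2281 CPM in JunD gRNA libraries, against 1784, 2081 and 2026 CPM in Rosa26 gRNA libraries. Each JunD gRNA library was above each Rosa26 gRNA library, although JunD gRNA replicate 1 lay close to Rosa26 gRNA replicate 2. The means were 2188 ± 85.4 CPM and 1964 ± 158 CPM (SD, n = 3 each), a ratio of 1.11, and the ratio was 1.07 without Rosa26 gRNA replicate 1. The small subunit summed to 663, 675 and 721 CPM in JunD gRNA libraries, against 565, 657 and 648 CPM in Rosa26 gRNA libraries, and the large subunit to 1445, 1493 and 1556 CPM in JunD gRNA libraries, against 1217, 1420 and 1375 CPM in Rosa26 gRNA libraries. The ratio of small to large subunit was 0.459, 0.452 and 0.464 in JunD gRNA libraries, against 0.464, 0.463 and 0.471 in Rosa26 gRNA libraries, so the groups overlapped. No p is given for these sums, because the genes were chosen with results of these data known.

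**Figure D2:**
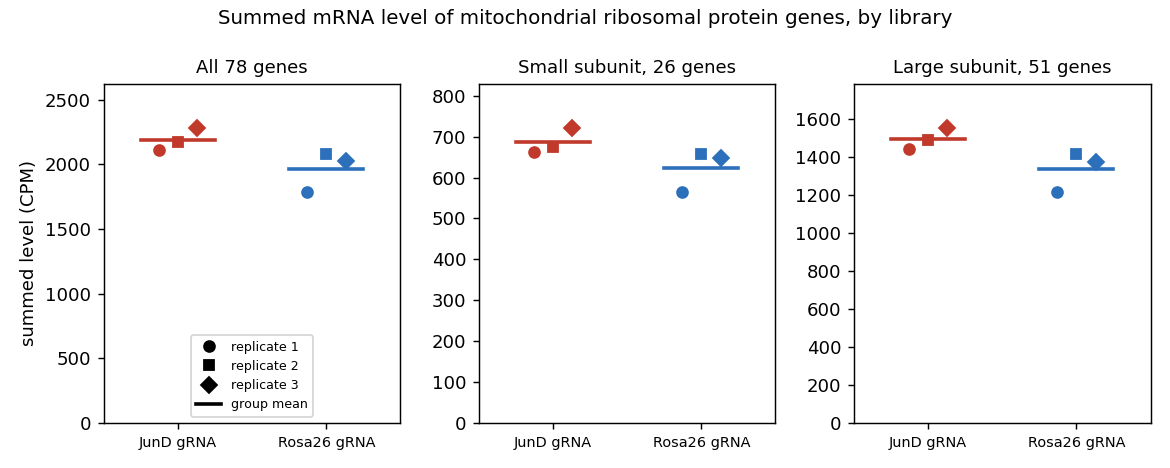
Summed CPM of all 78 members, the 26 small-subunit and the 51 large-subunit genes in each library, JunD gRNA left and Rosa26 gRNA right, with replicates as separate symbols and the group mean as a bar. Rosa26 gRNA replicate 1 is the lowest point in each panel (1784 CPM over all members), and JunD gRNA replicate 3 the highest (2281 CPM).

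Gene by gene, 69 of 77 tested members (89.6%) were on the positive side with all 6 libraries, compared with 48.9% of all genes tested. The median was 0.15, a 1.11-fold difference, against -0.01 for all genes. In 22 members (28.6%) every JunD gRNA library lay above every Rosa26 gRNA library, where 11.6% of all genes tested did so, and in 2 members every JunD gRNA library lay below, where 12.8% did so. Without Rosa26 gRNA replicate 1, 64 of 77 were positive (83.1%, against 49.2% of all genes), the median was 0.09, a 1.06-fold difference, 24 members lay wholly above (31.2%, against 15.7% of all genes) and 5 wholly below (6.49%, against 17.3%). The sign was the same in both fits for 70 of the 77. In 55 members the lowest of the 6 levels was that of Rosa26 gRNA replicate 1, and JunD gRNA replicate 3 the highest in 40. Set against the mean of Rosa26 gRNA replicates 2 and 3, JunD gRNA replicates 1, 2 and 3 were higher in 50, 60 and 58 of the 77 members, with median log2 ratios of 0.04, 0.10 and 0.13.

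Few single members passed a test. With all 6 libraries, at a threshold of 0.05 on the adjusted p, edgeR called 0 members higher and 0 lower, the same as for all 17767 genes (0.0% in each direction), and DESeq2 (0.113% of genes higher, 0.265% lower) and limma-voom (0.0% each) called 0 members too. limma-voom with sample weights, which gives less weight to a library that stands apart, called 1 member higher, Mrpl28 (log2 fold change 0.24, limma adjusted p = 0.0337), against 1.16% of all genes higher and 1.24% lower. At an unadjusted p under 0.05, 12 members were higher (5.41% of all genes were) and 0 lower (6.51%). Without Rosa26 gRNA replicate 1, 1 member rose and 0 fell, against 1.45% of all genes higher and 1.4% lower, so 1 of 77 is near the background. At an unadjusted p, 16 were higher (8.31% of all genes) and 0 lower (7.59%). The median SE of a member's log2 fold change was 0.11 with 6 libraries and 0.08 with 5, about the size of the fold changes themselves.

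The number of members called moved with the setting, and in no fit run was a member called lower. With 6 libraries edgeR called 0 members without a count filter (0.112% of genes higher, 0.18% lower) and 0 with GC and length corrected (0.00563% and 0.0675%). With 5 libraries 1 member was higher under RLE factors (1.53% of genes higher, 1.36% lower), library totals (1.33% and 1.48%), DESeq2 (1.86% and 1.56%), limma-voom (1.6% and 1.62%), its weighted form (2.28% and 2.32%), a stricter count filter (2.29% and 2.41%) or without JunD gRNA replicate 3 (1.77% and 1.99%). Without a count filter 6 members were higher (1.72% of genes higher, 1.28% lower). Leaving out JunD gRNA replicate 1 gave 7 (2.1% and 1.45%) and JunD gRNA replicate 2 gave 4 (1.56% and 0.926%), with 2 libraries on each side. Leaving out Rosa26 gRNA replicate 2 (0.0846% and 0.185%) or 3 (0.0947% and 0.147%) gave 0, but these fits hold 1 Rosa26 gRNA library, assumed to vary like the others, and calls over all genes were few as well, so they are not comparable with the rest.

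**Figure D3:**
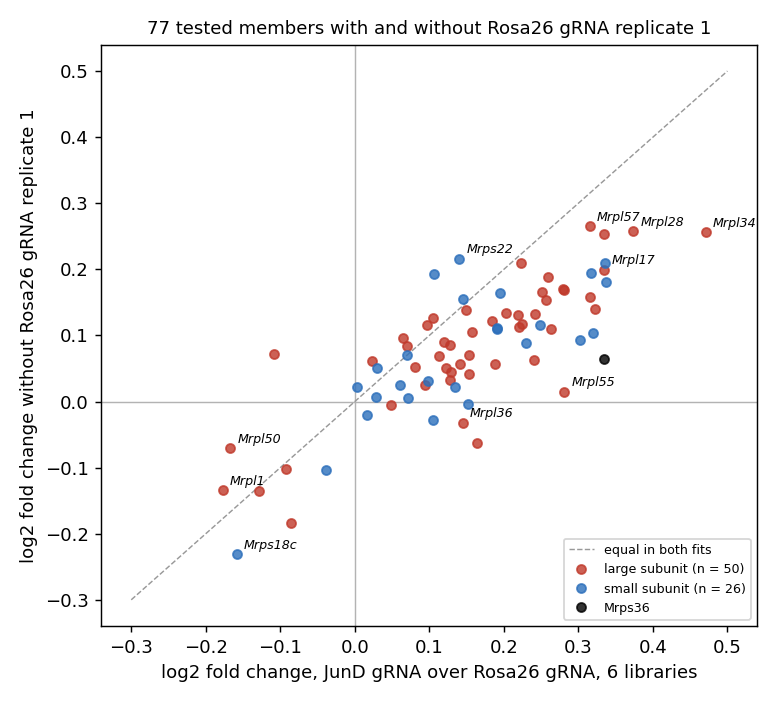
Log2 fold change of each of the 77 tested members, JunD gRNA over Rosa26 gRNA, with all 6 libraries (horizontal) and without Rosa26 gRNA replicate 1 (vertical), by subunit, with the dashed line marking equal values. Most points with a positive fold change lie below the dashed line (58 of 69), and most remain above 0 on both axes.

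Mrpl28 was the member that passed. It encodes the counterpart of bacterial L28 in the large subunit, has the gene identifier ENSMUSG00000024181.8 and lies on the plus strand of chromosome 17. Its level was 63.8, 65.9 and 73.5 CPM in JunD gRNA libraries, against 44.7, 58.0 and 55.8 CPM in Rosa26 gRNA libraries. The lowest JunD gRNA library was above the highest Rosa26 gRNA library. Its log2 fold change was 0.37 ± 0.11 (SE) with all 6 libraries (edgeR adjusted p = 0.417), and it rose by 0.26 ± 0.06 without Rosa26 gRNA replicate 1 (edgeR adjusted p = 0.0198). The call was lost after correcting for GC content and length (log2 fold change 0.17, edgeR adjusted p = 0.0621). It was also lost when Rosa26 gRNA replicate 2 (log2 fold change 0.29, edgeR adjusted p = 0.161) or 3 (0.24, adjusted p = 0.443) was left out as well, which leaves 1 Rosa26 gRNA library and a fold change of about the same size. Over all alternatives with 5 libraries its adjusted p ran from 0.00064 to 0.443, and its log2 fold change was positive in each. Its longest transcript has a GC content of 58.6%, against a median of 49.7% over tested members and 49.6% over all genes tested. The printed window upstream of Mrpl28 holds none of the marked motifs.

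Among large-subunit members with the highest fold changes, Mrpl34, the counterpart of bacterial L34, was at 24.1, 25.2 and 29.5 CPM in JunD gRNA libraries, against 13.1, 22.4 and 21.8 CPM in Rosa26 gRNA libraries. Its log2 fold change was 0.47 ± 0.19 (SE) with 6 libraries and 0.26 ± 0.08 without Rosa26 gRNA replicate 1 (edgeR adjusted p = 0.417 and 0.0941), so the fitted value was smaller when the lowest library was left out. Mrpl17, which lines the surface near the exit tunnel, was at 72.5, 72.1 and 84.9 CPM in JunD gRNA libraries, against 49.97, 68.8 and 65.0 CPM in Rosa26 gRNA libraries. Its values were 0.33 ± 0.13 and 0.20 ± 0.06 (edgeR adjusted p = 0.417 and 0.0868). Mrpl14, which assembly factors bind at the subunit interface, was at 27.0, 26.2 and 33.7 CPM in JunD gRNA libraries, against 20.8, 25.03 and 23.9 CPM in Rosa26 gRNA libraries, with 0.33 ± 0.12 and 0.25 ± 0.09. In these 3 genes the groups did not overlap, but JunD gRNA replicate 3 stood well above the other JunD gRNA libraries. Mrpl57, a mitochondria-specific protein named after its value was seen, was at 43.9, 43.2 and 55.0 CPM in JunD gRNA libraries, against 36.3, 41.9 and 37.4 CPM in Rosa26 gRNA libraries. Its values were 0.32 ± 0.11 and 0.27 ± 0.08 (edgeR adjusted p = 0.417 and 0.0799). After the correction for GC content and length on 5 libraries, Mrpl17 and Mrpl57 rose (log2 fold changes 0.26 and 0.33, edgeR adjusted p = 0.0124 and 0.0137). They were the 2 members called there, where 1.31% of all genes were higher and 1.53% lower. Their longest transcripts have GC contents of 43.0% and 42.3%. The same correction gave smaller values for Mrpl34 (0.17) and Mrpl14 (0.15), and neither passed.

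Among small-subunit members none passed in either fit, and the fold change of the 10 mitochondria-specific ones was positive in all 10 with 6 libraries and in 9 with 5. Mrps34, a mitochondria-specific protein needed for stability of the small subunit, was at 44.4, 45.1 and 54.5 CPM in JunD gRNA libraries, against 31.9, 42.5 and 40.95 CPM in Rosa26 gRNA libraries, without overlap. Its log2 fold change was 0.34 ± 0.13 (SE) with 6 libraries and 0.21 ± 0.07 with 5 (edgeR adjusted p = 0.417 and 0.131), and 63.4% of its exon length overlaps Mapk8ip3 on the opposite strand and 37.0% Nme3 on the same strand. Mrps11, the counterpart of bacterial S11, was at 30.3, 33.7 and 35.5 CPM in JunD gRNA libraries, against 22.4, 29.0 and 29.1 CPM in Rosa26 gRNA libraries, with values of 0.32 and 0.19. Its opposite-strand neighbour Mrpl46 was at 18.4, 20.5 and 21.3 CPM in JunD gRNA libraries, against 14.3, 19.5 and 16.3 CPM in Rosa26 gRNA libraries, with values of 0.28 and 0.17. Both genes had positive values, neither passed, and their exons overlap over 12.2% of the Mrpl46 length. Mrps12 was at 42.1, 46.6 and 51.7 CPM in JunD gRNA libraries, against 29.2, 43.4 and 39.5 CPM in Rosa26 gRNA libraries, and here the groups overlapped. Its values were 0.34 ± 0.15 and 0.18 ± 0.07. After the GC and length correction on 5 libraries, Mrps34, Mrps11, Mrpl46 and Mrps12 had smaller values (0.11, 0.15, 0.14 and 0.11).

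A few members had lower levels in JunD gRNA libraries, without any passing the test. The lowest log2 fold changes with 6 libraries were those of Mrpl1 (-0.18, and -0.13 with 5) and Mrpl50 (-0.17, and -0.07 with 5). In both of these genes the groups overlapped. Mrpl32, whose protein is cut by a mitochondrial protease before it joins the large subunit, was at 12.2, 13.8 and 13.2 CPM in JunD gRNA libraries, against 14.5, 14.0 and 14.8 CPM in Rosa26 gRNA libraries. Its log2 fold change was -0.13 ± 0.09 (SE) with 6 libraries (edgeR adjusted p = 0.519) and -0.14 ± 0.09 with 5. Mrps30 was at 16.3, 15.7 and 14.6 CPM in JunD gRNA libraries, against 16.8, 17.0 and 16.4 CPM in Rosa26 gRNA libraries, with values of -0.09 and -0.10. With 6 libraries Mrpl32 and Mrps30 were the 2 members lying wholly below, each by a margin smaller than the range within either group. After the GC and length correction with all 6 libraries the signs of both turned (0.02 and 0.10). With the same correction on 5 libraries both stayed negative (-0.07 and -0.02).

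The 3 S18 paralogues differed in sign. The split by origin counts Mrps18c as having a bacterial counterpart, and Mrps18a and Mrps18b as mitochondria-specific. For Mrps18a, in the large subunit, the log2 fold change was 0.19 ± 0.12 (SE) over 6 libraries and 0.06 ± 0.07 over 5. Mrps18b, in the small subunit, had 0.13 ± 0.12 and 0.02 ± 0.09. Mrps18c, in the small subunit, was at 6.79, 7.38 and 8.22 CPM in JunD gRNA libraries, against 7.65, 8.84 and 8.78 CPM in Rosa26 gRNA libraries. Its values were -0.16 ± 0.12 and -0.23 ± 0.11 (edgeR adjusted p = 0.551 and 0.331), and -0.23 was the lowest of any tested member in the fit without Rosa26 gRNA replicate 1. None of the 3 passed, and the differences between paralogues were not tested.

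**Figure D4:**
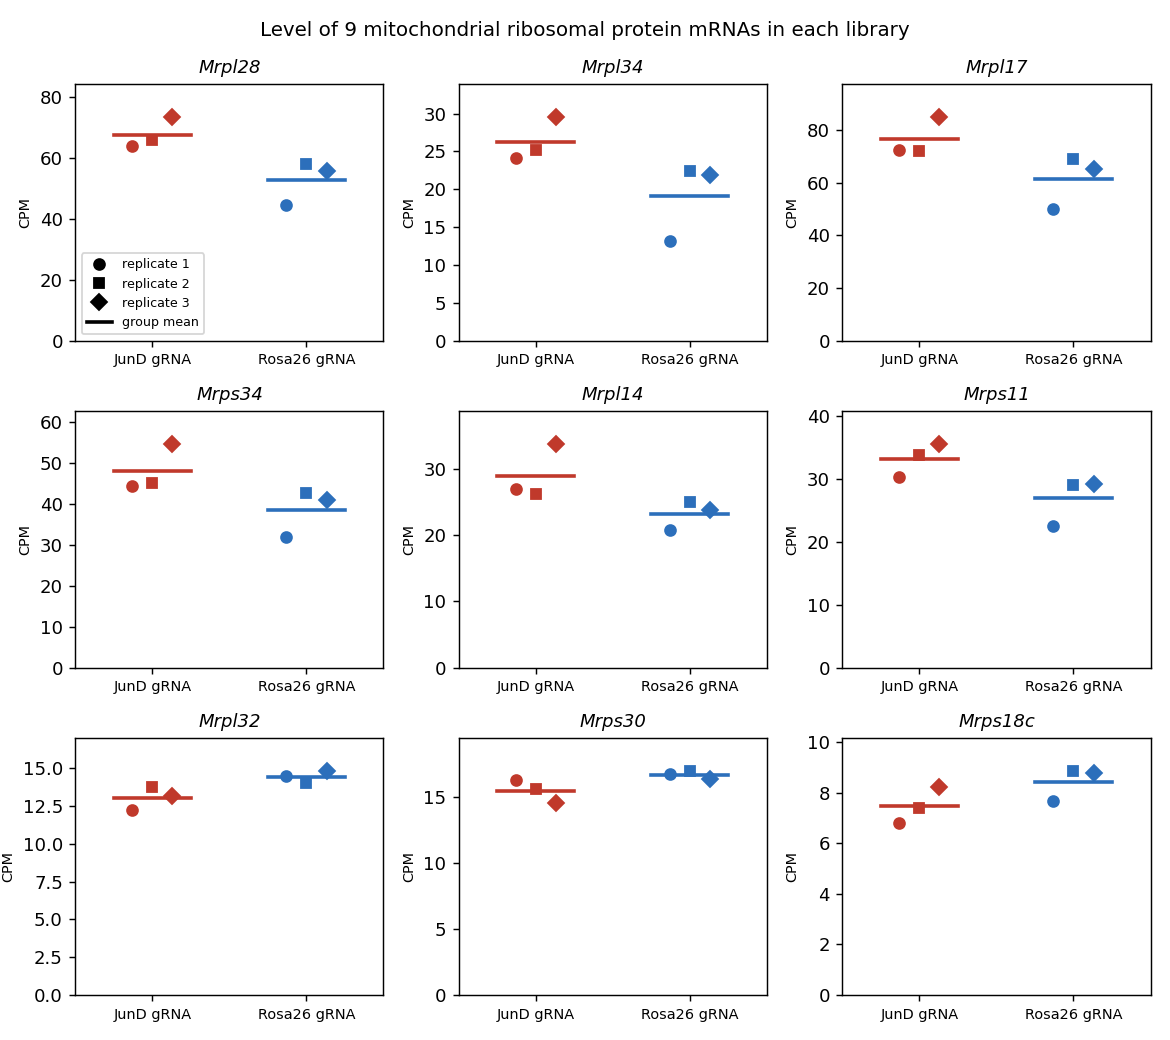
Level in CPM of 9 members in each library, JunD gRNA left and Rosa26 gRNA right, with replicates as separate symbols and group means as bars. In Mrpl28, Mrpl34, Mrpl17, Mrps34, Mrpl14 and Mrps11 each JunD gRNA point lies above each Rosa26 gRNA point, with Rosa26 gRNA replicate 1 the lowest, whereas Mrpl32 and Mrps30 show the opposite order and the groups overlap in Mrps18c.

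Some members have a second known activity. Mrpl12, which also binds the mitochondrial RNA polymerase, was at 18.1, 17.9 and 21.1 CPM in JunD gRNA libraries, against 11.4, 18.4 and 16.3 CPM in Rosa26 gRNA libraries. The groups overlapped, and its log2 fold change was 0.32 ± 0.17 (SE) with 6 libraries and 0.14 ± 0.09 with 5. Mrpl41, which can bind the survival protein BCL2, was at 24.4, 26.9 and 27.3 CPM in JunD gRNA libraries, against 21.0, 23.8 and 24.1 CPM in Rosa26 gRNA libraries, with 0.20 ± 0.09 and 0.13 ± 0.07. Mrpl58, a peptidyl-tRNA hydrolase that rescues stalled ribosomes, was at 32.4, 33.1 and 35.7 CPM in JunD gRNA libraries, against 25.99, 30.6 and 28.9 CPM in Rosa26 gRNA libraries, with 0.26 ± 0.09 and 0.19 ± 0.07 (edgeR adjusted p = 0.417 and 0.145). Groups did not overlap for Mrpl41 and Mrpl58, and none of these 3 genes passed in either fit.

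By class, the median log2 fold change was 0.14 for the 26 small-subunit and 0.16 for the 50 tested large-subunit genes with 6 libraries, and 0.08 and 0.09 with 5. Genes with a bacterial counterpart had medians of 0.15 and 0.08, and mitochondria-specific genes 0.15 and 0.10. Within the 77 members, fold change followed GC content across genes, as a description over genes that share the same libraries (Spearman rho of 0.595 with 6 libraries and 0.432 with 5), and was lower for longer transcripts (rho of -0.535 and -0.239). The members' median GC content was close to that of all genes, while their median exon length was 2533 bases, against 3634 bases for all genes tested. With each library's trends in GC content and length taken out, the members' median was 0.14 with 6 libraries and 0.09 with 5.

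Mitoribosomal proteins with other symbols were mixed. Gadd45gip1, a large-subunit protein also known as CRIF1, was at 33.9, 36.8 and 40.7 CPM in JunD gRNA libraries, against 28.01, 30.7 and 31.2 CPM in Rosa26 gRNA libraries. It rose by 0.27 ± 0.07 (SE) without Rosa26 gRNA replicate 1 (edgeR adjusted p = 0.0426) and had 0.33 with all 6 (0.417). Ptcd3, a small-subunit protein that binds RNA, was at 33.4, 32.6 and 30.0 CPM in JunD gRNA libraries, against 45.0, 39.3 and 35.8 CPM in Rosa26 gRNA libraries. Its log2 fold change was -0.23 ± 0.07 without Rosa26 gRNA replicate 1 (edgeR adjusted p = 0.0647) and -0.31 with all 6 libraries, and it passed in neither fit. Aurkaip1 had 0.16 with 5 libraries and 0.27 with 6 and did not pass. Of the 5 genes in this list (also Aurkaip1, Chchd1 and Dap3), 1 rose and 0 fell, where 1.45% of all genes rose and 1.4% fell. With GC and length corrected, Gadd45gip1 had a log2 fold change of 0.23 and just missed the threshold (edgeR adjusted p = 0.0562), and 0 of 5 passed.

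Other genes of mitochondrial gene expression had medians nearer to 0. Over all genes 0.0% passed in each direction with 6 libraries, and 1.45% rose and 1.4% fell with 5. In lists of 13 to 24 genes a count of 0 is therefore near the background. Of 24 genes for assembly factors and rRNA-modifying enzymes, 0 passed in either fit, and the median log2 fold change was 0.04 with 6 libraries and -0.01 with 5. The smallest p-values belonged to Mettl15, an rRNA methyltransferase gene (-0.58 ± 0.17 with 5 libraries, edgeR adjusted p = 0.0683), Fastkd2 (-0.14) and Nsun4 (-0.16). Of 15 tested translation factors, 0 passed, with medians of -0.03 and -0.02. Those with the smallest p-values were Mtfmt, the formyltransferase of the initiator tRNA (0.18 with 5 libraries), the elongation factor gene Tufm (-0.20) and the release factor gene Mtrf1 (-0.24). Of 13 regulators of mitochondrial transcription and biogenesis, 0 passed, with medians of 0.04 and -0.01. Gabpa, which encodes a subunit of GABP, was at 35.5, 35.9 and 31.6 CPM in JunD gRNA libraries, against 49.9, 38.8 and 35.0 CPM in Rosa26 gRNA libraries, and the groups overlapped. Ppargc1a, a coactivator of mitochondrial biogenesis, was at 3.90, 4.02 and 3.79 CPM in JunD gRNA libraries, against 7.30, 4.90 and 4.87 CPM in Rosa26 gRNA libraries, and did not pass (-0.32 ± 0.15 SE with 5 libraries, edgeR adjusted p = 0.275). Tfb2m, a transcription factor of the mitochondrial genome, had 0.17 with 5 libraries and 0.06 with 6. Of 17 mitochondrial aminoacyl-tRNA synthetases, Lars2 fell and the other 16 did not pass, with a list median of 0.04 and 0.02. Lars2, the leucyl-tRNA synthetase, fell by 0.54 ± 0.08 (SE) without Rosa26 gRNA replicate 1 (edgeR adjusted p = 0.000186), and its value with all 6 libraries was -3.55 ± 1.10 (edgeR adjusted p = 0.417). It was at 117, 99.9 and 86.0 CPM in JunD gRNA libraries, against 3344, 137 and 156 CPM in Rosa26 gRNA libraries, and Rosa26 gRNA replicate 1 held most of its reads. Wars2 (-0.30) and Sars2 (0.14) came next by p with 5 libraries. Differences between these lists and the mitoribosomal list were not tested.

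Of 3 related gene groups, both nuclear ones had medians of about the same size. Cytosolic ribosomal proteins (78 tested) had a median log2 fold change of 0.15 with 6 libraries and 0.07 with 5, and 3 rose and 0 fell with 5. Nuclear subunits of the respiratory chain (81 tested) had medians of 0.19 and 0.09, and 2 rose and 0 fell with 5. With 1.45% of all genes higher and 1.4% lower, both counts are near the background. With all 6 libraries, 85.9% of the cytosolic and 91.4% of the respiratory chain genes were positive, against 89.6% of members. Every JunD gRNA library lay above every Rosa26 gRNA library in 25.6% and 44.4% of them, against 28.6% of members and 11.6% of all genes. The mRNAs of the mitochondrial genome, which the mitoribosome translates, lay on the other side. The 12 tested had medians of -0.23 and -0.09, with 3 fallen and 0 risen with 5 libraries, and their sums were 16606, 16182 and 15234 CPM in JunD gRNA libraries, against 21260, 17040 and 17594 CPM in Rosa26 gRNA libraries. After the GC and length correction their median was -0.05 and -0.01, and 0 passed. All 4 groups share the same libraries, and their fold changes use the same controls.

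**Figure D5:**
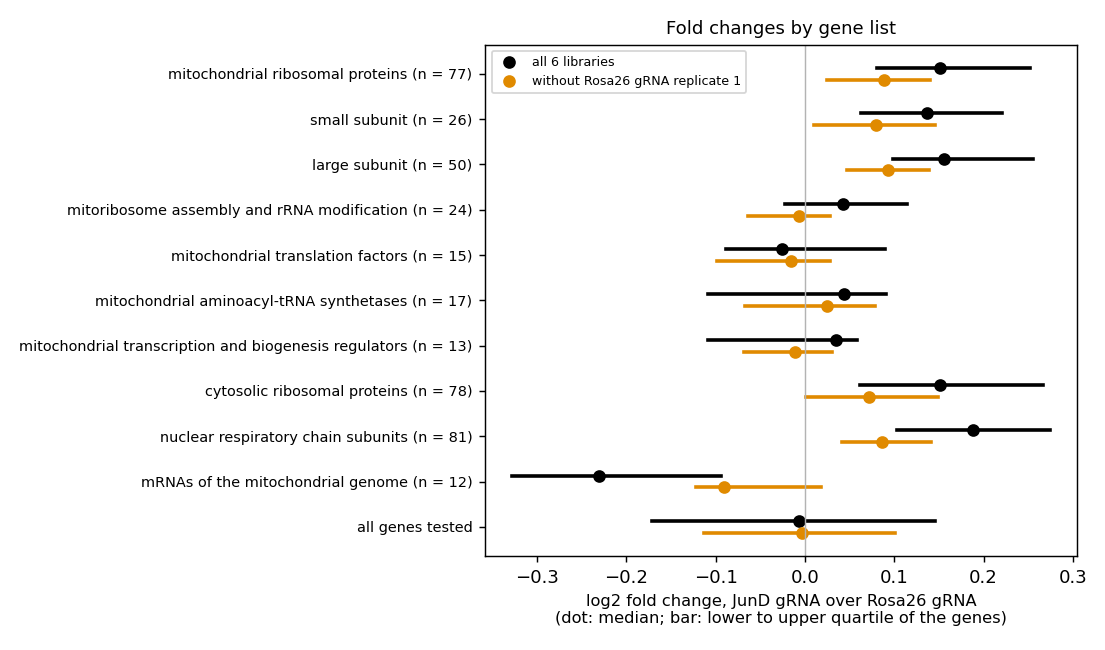
Log2 fold change, JunD gRNA over Rosa26 gRNA, by gene list: dots are medians and bars run from the lower to the upper quartile of the tested genes, with all 6 libraries in black and without Rosa26 gRNA replicate 1 in orange. Mitochondrial ribosomal proteins (median 0.15 and 0.09), cytosolic ribosomal proteins and respiratory chain subunits lie right of 0, and the mRNAs of the mitochondrial genome left of it (-0.23 and -0.09).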

How the data were processed

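Per the labels' protocols, RNA was purified on columns and made into Illumina libraries. The authors deposited raw counts per gene for each of 6 libraries. The submitters' processing notes name TopHat2, featureCounts and mm10. The sources used here do not give versions, annotation release, strand setting or the handling of reads with several matches, so reads of overlapping genes and of near-identical copies cannot be told apart.

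Symbols were matched by Ensembl identifier without version (53274 of 53379). Positions, biotypes, exon lengths and GC content came from GENCODE M21 (GRCm38, the same assembly as mm10), and promoter windows from RefSeq on GRCm38.p6. Counts of all genes were fitted with edgeR 4.0.16 in R 4.3.3 (TMM factors, filterByExpr, quasi-likelihood test with group as the sole term, two-sided, Benjamini-Hochberg adjustment over all genes tested, threshold 0.05), with all 6 libraries and without Rosa26 gRNA replicate 1. The SE is the absolute log2 fold change over the square root of the F statistic and is approximate. CPM are counts over the library total. Totals of 41071566 to 50024931 counts left at least 84 counts for every tested member in every library. No 2 libraries of a group agreed within sampling noise (lowest chi-square per degree of freedom 3.26). For the GC and length correction, splines (5 degrees of freedom) were fitted to the log2 deviations of a library and entered edgeR as offsets. DESeq2 1.42.0, limma 3.58.1 with and without sample weights, other normalizations and filters, a replicate block and left-out libraries were alternatives. The procedure was tested on simulated data.

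Members and lists were chosen with earlier results of these data known. Named were members past the threshold, those with the 6 highest and 6 lowest fold changes with 6 libraries among genes of at least 2 CPM whose groups do not overlap (2 such genes were lower), the 5 highest and 5 lowest per kilobase, 8 fixed members, and up to 3 genes with the smallest p of each other list. The last part is printed for the lists of mitochondrial gene expression. The 3 related groups are given as counts, medians or sums, and single markers beyond Ins2 were named after their values were seen. Mrpl57, Mrpl46, Mrpl1, Mrpl50 and the genes named for their motif or neighbour were named after their values were seen. No file was left out.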

Additional observations from a re-analysis of the deposited data

How the results depend on the processing

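With all 6 libraries the count of members called lower was 0 under every alternative run, and the count called higher was 0 except with limma-voom sample weights (1, Mrpl28) and on leaving out libraries in turn (0 to 1, where 1 was without Rosa26 gRNA replicate 1). The members' median log2 fold change of 0.15 stayed positive and within the replicate spread under all of them, from 0.09 with sample weights or without Rosa26 gRNA replicate 1 to 0.21 without Rosa26 gRNA replicate 2. With 5 libraries the count called higher, 1, was 2 with GC and length corrected, 6 with no count filter, and 0 to 7 on leaving out a further library. The 0 came without Rosa26 gRNA replicate 2 or 3, fits with 1 Rosa26 gRNA library that called few genes at all. It was 7 without JunD gRNA replicate 1 and 4 without JunD gRNA replicate 2, and the median ran from 0.07 to 0.11. The weighted limma-voom fit on 5 libraries was added after the data were seen and called 1.

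Among the members named by rule, fold changes that changed sign with all 6 libraries were those of Mrpl2 (-0.0898), Mrpl32 (0.0161), Mrps30 (0.0958) and Mrpl23 (-0.00375) after the GC and length correction, and of Mrpl23 without JunD gRNA replicate 3, where it ran from -0.0483 to 0.167 on leaving out each library. Of the other members, Mrps15 (-0.05), Mrps17 (0.07) and Mrps23 (-0.05) also turned after the GC and length correction. The cause was not tested. Deviations of libraries with the same replicate number had correlations of 0.0555, -0.0393 and 0.0742 across genes, and those with different numbers -0.101 to 0.0687. With 3 libraries per group and Rosa26 gRNA replicate 1 apart from the rest, these values cannot settle whether the numbers pair the libraries. With the replicate number as a block the calls stayed at 0 and the median was 0.16. Depth limits Mrpl23 and Mrps36 most, and differences of the size of the median are near the SE of a single gene.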
